A study of Sus scrofa with 8 samples.

Results

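Anterior foregut endoderm (AFE), which gives rise to the pharynx, oesophagus, trachea and lung, was set against the stages on both sides of it in a differentiation of pig cells. The genes described are those whose level in AFE stood apart from definitive endoderm (DE), the stage before, and from lung progenitor organoids (LPO), the stage after. They were chosen by contrasting the AFE mean with the average of the DE and LPO means in 1 model, and by asking that both AFE libraries lie above, or both below, all 4 DE and LPO libraries. Of 19346 genes tested, 3073 were called higher without overlap (15.9%) and 2758 were called lower without overlap (14.3%). They are called foregut-high and foregut-low genes here.

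The study differentiated pig (Sus scrofa) pluripotent stem cells (PSC) into DE, AFE and LPO and sequenced messenger RNA at the 4 stages. Each stage had 2 libraries, and the labels name the stage alone, with no line, treatment, culture time or genotype. Whether both libraries of a stage are separate cultures is not stated in the labels, so p-values measure the spread between these libraries, which may be technical. The PSC libraries entered the model for its estimate of spread but carry no weight in the contrast.

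In the embryo the front of the endoderm is patterned by retinoic acid, WNT, BMP and FGF signals. Retinoic acid is made from retinol by RDH10 and enzymes of the ALDH1A family, is bound in the cell by CRABP proteins, acts through RAR receptors and is broken down by CYP26 enzymes, which are themselves induced by it. HOX genes of the first groups, among them HOXB1, are classical targets of retinoic acid in the hindbrain and pharyngeal region.

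Deposited counts summed to 36004372 to 67566269 per library, about 4 counts to a read pair, and the AFE libraries were the deepest, with 67566269 and 66608214. Levels are in counts per 1e6 counts (CPM, after TMM scaling), a scale on which 3 read pairs stand at 0.150 to 0.357 CPM. Differences are on the log2 scale with their standard error (SE), and adjusted p-values are Benjamini-Hochberg values of edgeR's quasi-likelihood test over all genes tested. The AFE libraries were close to each other, with 98.1% of genes above 1 CPM within 2-fold. TMM factors were 1.26 and 1.27 in LPO against 0.901 to 0.954 elsewhere, so that directions against LPO lean on the scaling.

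The contrast itself, with or without overlap, called 5215 genes higher in AFE (27.0%) and 4219 lower (21.8%). These counts include 1597 genes called higher and 903 called lower whose AFE mean lay between the DE and LPO means, which the overlap rule leaves out. Higher genes made up 55.3% of all called genes, but 40.3% when libraries were scaled by their totals alone and 33.6% in a fit to log2 FPKM with a pseudocount of 1. The scaling by totals moved the median contrast of all genes from 0.04 to -0.21. A stricter rule, in which AFE differed from DE and from LPO in separate tests that share the AFE libraries, called 1655 genes higher in both (8.55%) and 1677 lower in both (8.67%). Without AFE library 1 the former count was 1041, and without AFE library 2 it was 1014. The smaller of the 2 steps reached 2-fold in 715 foregut-high and 984 foregut-low genes, and 8-fold in 122 and 140.

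**Figure D1:**
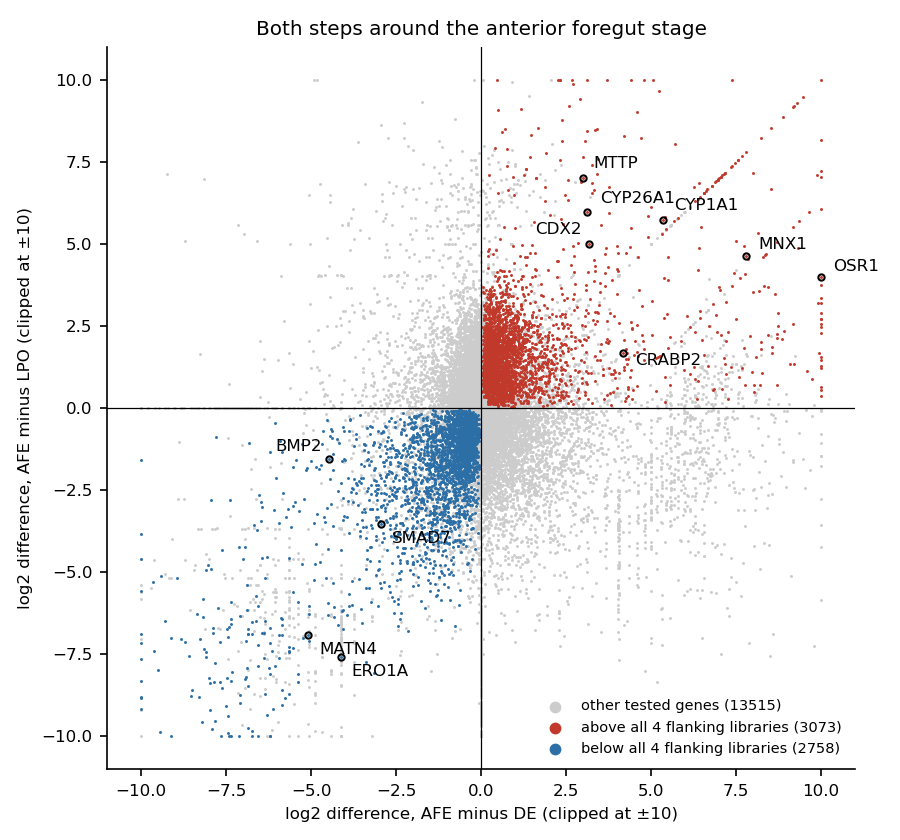
Each point is a tested gene, with the fitted log2 difference AFE minus DE across and AFE minus LPO up, and red and blue mark the 3073 foregut-high and 2758 foregut-low genes. The foregut-high genes fill the upper right quadrant with OSR1 and MNX1 far out on the DE axis and MTTP and CYP26A1 far up the LPO axis; rows of points far from 0 are genes at or near 0 in a stage.

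The foregut-high and foregut-low genes were also placed against PSC. The AFE libraries are the ones by which they were chosen, so these shares describe the sets and support nothing. In 1925 of the 3073 (62.6%) both PSC libraries lay below both AFE libraries and in 850 (27.7%) above, against 43.3% and 33.1% of all genes tested. Of the 2758 foregut-low genes, PSC lay above AFE in 1330 (48.2%) and below in 898 (32.6%). The foregut-high genes took 50.3% of all CPM in AFE, 31.1% in DE, 25.9% in LPO and 41.4% in PSC. The foregut-low genes took 8.07% in AFE, 15.2% in DE, 25.1% in LPO and 10.1% in PSC. Both sets were poorer in long noncoding RNA genes (6.25% and 3.73%) than the genes tested (14.7%). The median AFE level was 46.7 CPM in the foregut-high and 10.4 in the foregut-low genes, against 7.49 over all genes tested. The part of that level in these shares was not tested.

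The 4 genes proposed as marks of the stage stood clear of every DE and LPO library. CYP26A1, which breaks down retinoic acid, stood at 705 and 694 CPM in AFE, 99.2 and 60.7 in DE and 11.3 and 10.9 in LPO. AFE was 8.75-fold above DE and 63-fold above LPO, and the 2 DE libraries differed from each other more than the 2 AFE libraries did. OSR1, a zinc finger factor of foregut mesenchyme and kidney precursors, stood at 291 and 304 CPM in AFE, 0.121 and 0 in DE and 16.4 and 21.3 in LPO. It was at 0 in both PSC libraries and in 1 DE library, and AFE lay 15.8-fold above LPO. CDX2, which specifies hindgut and intestine, stood at 21.1 and 26.6 CPM in AFE, 3.04 and 2.19 in DE and 0.823 and 0.667 in LPO. ITIH2, a plasma hyaluronan-binding protein chain made by liver, stood at 22.6 and 24.2 CPM in AFE, 0 and 0.123 in DE and 0.237 and 0.214 in LPO. Neither CDX2 nor ITIH2 had a read in PSC, and their AFE values overlapped with no other stage. The log2 contrast was 4.55 (0.18 SE, adjusted p = 1.5e-06) for CYP26A1, 8.09 (0.26 SE, adjusted p = 1.9e-06) for OSR1, 4.09 (0.22 SE, adjusted p = 1.4e-05) for CDX2 and 7.61 (0.47 SE, adjusted p = 2.4e-05) for ITIH2. OSR1 and ITIH2 were near 0 in DE, so the fitted size of their contrasts depends on the prior count and is no measure of a fold. The 4 genes were proposed with results of these data in view.

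The defining markers of anterior foregut endoderm did not share that shape. FOXA2, the pioneer factor of all endoderm, stood at 96.8 and 87.1 CPM in AFE, 297 and 292 in DE and 39.1 and 42.1 in LPO. AFE thus lay between DE and LPO; the log2 contrast was -0.25 (0.08 SE, adjusted p = 0.0414), a call that was lost without any single DE, AFE or LPO library. SOX2, which marks the front of the gut tube, stood at 5.35 and 6.6 CPM in AFE, 0.121 and 0.0701 in DE and 30.3 and 30.7 in LPO. It was near the floor in DE and highest in LPO, with AFE in between. TBX1, a pharyngeal factor, stood at 11.5 and 10.9 CPM in AFE, 2.99 and 3.66 in DE and 2.43 and 3.07 in LPO. Of FOXA2, SOX2, TBX1, PAX9 and ISL1, TBX1 alone was foregut-high. Its log2 contrast was 1.89 (0.57 SE, adjusted p = 0.0266). The call was lost without any single DE, AFE or LPO library, with adjusted p-values of 0.0581 to 0.139, and with library totals as the scaling.

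PAX9, a pharyngeal pouch factor, stood at 2.38 and 1.33 CPM in AFE, 0.156 and 0.14 in DE and 9.88 and 10.8 in LPO. ISL1, a factor of foregut and adjoining mesoderm, stood at 2.09 and 3.38 CPM in AFE, 2.39 and 4.01 in DE and 6.63 and 6.38 in LPO. Neither passed the test of the contrast, with adjusted p-values of 0.17 for PAX9 and 0.148 for ISL1, and PAX9 may share reads with an overlapping gene. Fitted to log2 FPKM with limma and a pseudocount of 1, the contrast of PAX9 was -0.41 (adjusted p = 0.00047), the opposite direction and a call, and with a pseudocount of 0.1 it was -0.57 (adjusted p = 0.0509). The libraries labelled AFE therefore held FOXA2, SOX2 and TBX1 transcripts together with those of the hindgut factor CDX2, and little of PAX9 and ISL1. Other genes of the hindgut and intestine list differed among themselves. FABP1, a fatty acid carrier of gut and liver, was foregut-high at a low level, at 1.27 and 1.22 CPM in AFE, 0 and 0 in DE and 0 and 0 in LPO. VIL1, of the brush border, stood at 15.2 and 18.8 CPM in AFE, 82.7 and 89.5 in DE and 3.09 and 4.27 in LPO, between DE and LPO. CDH17, an intestinal cadherin, stood at 0.375 and 0.534 CPM in AFE, 0.138 and 0.14 in DE and 40.9 and 39.2 in LPO, and CDX1, the relative of CDX2, at 0 and 0.133 CPM in AFE, 0.138 and 0.0701 in DE and 0.761 and 0.428 in LPO. Of 24 tested genes of an anterior foregut and pharyngeal list, 3 were foregut-high, HOXA2 and TBX1 among them, and 0 foregut-low, a high share of 12.5% against 15.9% of all genes.

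Definitive endoderm genes moved in both directions. Of 15 tested genes of that list 2 were foregut-high and 3 (KIT, LHX1 and CER1) foregut-low, shares of 13.3% and 20%, against 15.9% and 14.3% of all genes. MIXL1, a factor of the primitive streak, stood at 6.59 and 8.09 CPM in AFE, 1.04 and 0.14 in DE and 0.599 and 0.504 in LPO, and CXCR4, a receptor used to sort definitive endoderm, at 35.6 and 34 CPM in AFE, 30.9 and 22.1 in DE and 14.6 and 12.6 in LPO. Both were foregut-high, though for CXCR4 the step from DE alone did not pass the test. SOX17, a defining factor of definitive endoderm, stood at 16.5 and 15 CPM in AFE, 251 and 228 in DE and 0.399 and 0.227 in LPO. HHEX, of the anterior endoderm, stood at 2.77 and 2.43 CPM in AFE, 72.6 and 65.5 in DE and 1.06 and 1.99 in LPO. OTX2, a head factor also present in pluripotent cells, stood at 3.92 and 3.17 CPM in AFE, 129 and 85.8 in DE and 0 and 0 in LPO. DE was the highest of the 3 stages for each, and AFE was 15.2-fold, 26.5-fold and 30.3-fold below it. GATA4, a factor of endoderm and heart, stood at 52.1 and 48.5 CPM in AFE, 496 and 519 in DE and 12 and 12.4 in LPO, and its relative GATA6 at 88.9 and 93.9 CPM in AFE, 121 and 128 in DE and 44.1 and 49.4 in LPO. AFE lay between DE and LPO for both. The contrast of GATA6 did not pass the test, with an adjusted p of 0.21. Although AFE lay below DE, the contrasts of SOX17 and OTX2 were called higher, at log2 values of 0.86 and 2.89. LPO was at or near 0 for both. Those of HHEX and GATA4 were called lower, at -1.98 and -0.64. None of these genes met the overlap rule, and the call of SOX17 was lost without AFE library 1 or LPO library 2.

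Of 23 tested genes of retinoic acid synthesis, breakdown and response, 9 were foregut-high (39.1%, against 15.9% of all genes) and 2 foregut-low. Their median contrast was 1.78, against 0.04 over all genes tested. Scaled by library totals alone, 6 of the 23 were foregut-high and 3 foregut-low.

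Among the breakdown enzymes, CYP26C1, the relative of CYP26A1, stood at 30.2 and 33.8 CPM in AFE, 7.87 and 3.63 in DE and 0.499 and 0.201 in LPO. Both AFE libraries were above all others, 5.57-fold over DE and 91.5-fold over LPO. CYP26B1, the third enzyme of the family, stood at 169 and 172 CPM in AFE, 0.588 and 1.24 in DE and 422 and 426 in LPO. It was highest in LPO and thus not foregut-high, although its contrast was called higher. DHRS3, which turns retinal back into retinol, stood at 471 and 467 CPM in AFE, 53.6 and 58.7 in DE and 328 and 336 in LPO. For this gene the LPO libraries stayed close to AFE, which was 1.41-fold higher, and the DE libraries were far below.

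Of the binding proteins and receptors, CRABP1, CRABP2, RARB and RARG were foregut-high, while the contrast of RARA was called higher and that of RXRA lower without meeting the overlap rule. CRABP2, which carries retinoic acid to the nucleus, stood at 1968 and 1908 CPM in AFE, 136 and 80.6 in DE and 612 and 594 in LPO. Per transcript length, on the FPKM scale, CRABP2 had a level of 1714 and 1654 in AFE, above CYP26A1 at 281 and 276 and DHRS3 at 217 and 213. CRABP1 stood at 7.12 and 9.54 CPM in AFE, 0 and 0.14 in DE and 5.11 and 6.12 in LPO. DE was near the floor for CRABP1, and AFE and LPO were close, 1.48-fold apart. The receptor gene RARB, itself induced by retinoic acid, stood at 124 and 124 CPM in AFE, 2.47 and 1.45 in DE and 57.5 and 52.8 in LPO. AFE was 63-fold over DE and 2.24-fold over LPO. RARG, another receptor of retinoic acid, stood at 57.6 and 59.7 CPM in AFE, 11.1 and 7.03 in DE and 50.9 and 55.8 in LPO, a margin over LPO of 1.1-fold.

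The synthesis enzymes were not alike. ALDH1A2, which makes retinoic acid from retinal, stood at 0.588 and 0.467 CPM in AFE, 2.39 and 1.59 in DE and 9.98 and 9.16 in LPO. RDH10, which makes retinal from retinol, stood at 2.99 and 2.42 CPM in AFE, 4.79 and 8.88 in DE and 21.7 and 23 in LPO. AFE was the lowest of the 3 stages for both and overlapped with neither DE nor LPO. The folds below DE were 3.78 for ALDH1A2 and 2.53 for RDH10, and below LPO 18.2 and 8.28. The log2 contrasts were -3.04 (0.60 SE, adjusted p = 0.00351) for ALDH1A2 and -2.19 (0.31 SE, adjusted p = 6.5e-04) for RDH10. ALDH1A1, which catalyses the same step as ALDH1A2, stood at 44.7 and 45.7 CPM in AFE, 0.761 and 0.876 in DE and 51.5 and 52 in LPO. It was low in DE and close in AFE and LPO. Its contrast was called higher without being foregut-high, and that of ALDH1A3 was not called.

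**Figure D2:**
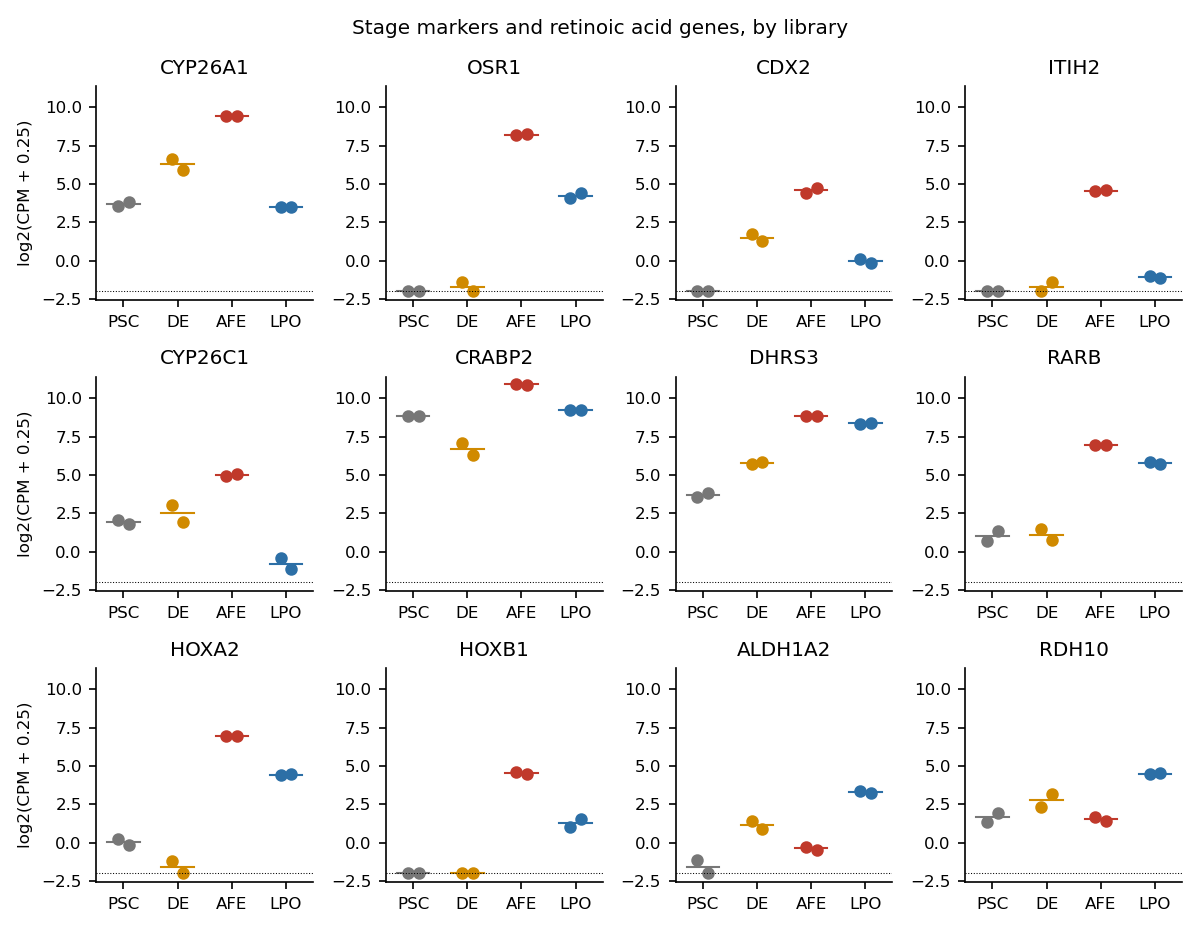
Each point is 1 library, 2 per stage, on a log2(CPM + 0.25) axis where the dotted line is 0 CPM and the short bars are stage means. CYP26A1, OSR1, CDX2, ITIH2, CYP26C1, CRABP2, DHRS3, RARB, HOXA2 and HOXB1 were highest in both AFE libraries, and ALDH1A2 and RDH10 lower there than in DE and LPO.

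The foregut-high HOX genes were mostly those of the front groups. Of 32 tested HOX genes, 5 were foregut-high and 0 foregut-low, a share near the 15.9% of all genes on the high side, and the LPO mean was above the DE mean in 31. HOXB1 stood at 24.2 and 21.6 CPM in AFE, 0 and 0 in DE and 1.78 and 2.69 in LPO, with no read in PSC. AFE was at least 109.7-fold over DE for HOXB1. HOXA2, of hindbrain and second arch, stood at 126 and 125 CPM in AFE, 0.19 and 0 in DE and 21.2 and 21.7 in LPO. HOXB2 stood at 121 and 86.4 CPM in AFE, 1.5 and 1.21 in DE and 42.8 and 44.2 in LPO, with AFE library 1 above AFE library 2. All 3 were at or near 0 in DE and held a lower level in LPO than in AFE. HOXB13, a gene of the hind end, was low throughout, at 3.85 and 2.92 CPM in AFE, 0 and 0 in DE and 2.02 and 2.35 in LPO. MNX1, a homeobox factor of notochord, motor neurons and pancreatic bud, stood at 94.4 and 95.2 CPM in AFE, 0.415 and 0.438 in DE and 3.4 and 4.18 in LPO. It was under 1 CPM in PSC and DE, and its log2 contrast was 6.22 (0.18 SE, adjusted p = 6.6e-07).

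Of 27 tested lung genes 3 were foregut-high (11.1%, against 15.9% of all genes) and 6 foregut-low (22.2%, against 14.3%). NKX2-1, the first factor of the lung and thyroid fields, stood at 20.2 and 19.5 CPM in AFE, 0 and 0 in DE and 33.7 and 34.2 in LPO, with no read in PSC. It was present in AFE, at least 95-fold above DE, and highest in LPO. SFTPB, a surfactant protein gene of lung epithelium, stood at 13.4 and 12.6 CPM in AFE, 0 and 0 in DE and 4.61 and 4.18 in LPO, which makes it foregut-high, 2.95-fold over LPO. SFTPC, the surfactant gene that marks alveolar type 2 cells, was at 0 in AFE and at 0.262 and 0.441 CPM in LPO. IRX3, an Iroquois factor of lung epithelium and other tissues, stood at 122 and 128 CPM in AFE, 2.85 and 1.44 in DE and 28.1 and 32.5 in LPO. IRX1, its relative, stood at 18.9 and 15.4 CPM in AFE, 9.77 and 13.3 in DE and 1.52 and 2.56 in LPO. AFE was highest for both, by a wide margin over DE for IRX3 and over LPO for IRX1. Among the foregut-low members ETV5, which acts below FGF in distal lung buds, stood at 7.62 and 6.5 CPM in AFE, 25.9 and 25.4 in DE and 54.1 and 60.6 in LPO, below every DE and LPO library. Neither of the next 2, SOX9 and FOXP2, met the overlap rule. The contrast was called lower for SOX9 and higher for FOXP2, at log2 values of -0.52 and 1.46. SOX9, of the distal lung tip, stood at 16.9 and 15.8 CPM in AFE, 4.12 and 2.82 in DE and 154 and 164 in LPO, and FOXP2 at 20.6 and 16.8 CPM in AFE, 1.54 and 2.37 in DE and 27.3 and 19.7 in LPO. LPO was the highest stage for SOX9, while the AFE and LPO values of FOXP2 overlapped.

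A minority of liver and plasma protein genes was foregut-high. Of 28 tested, 7 were foregut-high (25%, against 15.9% of all genes), 1 was foregut-low and 16 were not called in the contrast. In the KEGG pathway of complement and coagulation 10 of 53 were foregut-high (18.9%) and 6 foregut-low. With a filter of 5 FPKM in 2 libraries, which leaves fewer genes tested, 1 member of the liver and plasma protein list was foregut-high. SERPINA1, the protease inhibitor alpha-1-antitrypsin, stood at 13 and 16.8 CPM in AFE, 0 and 0 in DE and 0 and 0.101 in LPO. TF, transferrin, stood at 8.85 and 8.57 CPM in AFE, 2.37 and 1.28 in DE and 0 and 0 in LPO, and F2, prothrombin, at 11.8 and 9.35 CPM in AFE, 3.74 and 3.66 in DE and 1.3 and 1.5 in LPO. No AFE library overlapped with DE or LPO in these 3, and AFE was at least 71.3-fold above DE for SERPINA1. Other members moved differently. APOA1, an apolipoprotein of high-density particles, stood at 256 and 272 CPM in AFE, 13444 and 13162 in DE and 80.9 and 85.8 in LPO, between DE and LPO. HNF4A, the hepatic nuclear receptor, stood at 5.6 and 4.19 CPM in AFE, 279 and 309 in DE and 8.62 and 10.9 in LPO, 60.05-fold below DE. Of 22 tested genes of amino acid, lipid and sugar uptake, MTTP, LRP2 and FABP1 were foregut-high and NPC1L1, DAB2, SLC2A2 and SLC40A1 foregut-low. These shares were 13.6% and 18.2%, against 15.9% and 14.3% of all genes. MTTP, which loads lipid onto apolipoprotein B, stood at 127 and 129 CPM in AFE, 17.3 and 14.8 in DE and 0.985 and 1.01 in LPO. LRP2, an endocytic receptor of absorptive epithelia, stood at 50.6 and 49.3 CPM in AFE, 6.69 and 8.78 in DE and 5.08 and 5.01 in LPO. AFE was 129-fold over LPO for MTTP and 9.91-fold for LRP2. DAB2, an adaptor of endocytosis, stood at 9.22 and 9.17 CPM in AFE, 72 and 100.3 in DE and 28 and 27.9 in LPO, lowest in AFE of the 3 stages.

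SERPINA1 lies in the longest run of neighbouring foregut-high genes in the file's gene order, 7 genes on chromosome 7 between 115583043 and 115987453 in the file's coordinates, whose build the sources used here do not give. SERPINA5, the protein C inhibitor, stood at 5.61 and 5.39 CPM in AFE, 0 and 0.0876 in DE and 0.736 and 0.806 in LPO. SERPINA3-2, of the antichymotrypsin group, stood at 3.56 and 5.44 CPM in AFE, 0.951 and 0.841 in DE and 0 and 0 in LPO. Both were higher in each AFE library than in every DE and LPO library. The remaining 4 genes of the run have no symbol, and genes of this family are similar copies whose reads may be split between them. CDX2 lies in another run, on chromosome 11 between 5317557 and 5455358, beside FLT3, whose level was 0.996 and 0.55 CPM in AFE, 0.467 and 0.473 in DE and 0 and 0 in LPO.

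Enzymes of drug and retinol oxidation had a high share of foregut-high members. In the KEGG pathway of cytochrome P450 drug metabolism 9 of 20 tested genes were foregut-high and 1 foregut-low (45% and 5%). In retinol metabolism the counts were 9 and 5 of 29 (31.0% and 17.2%). The shares of all genes were 15.9% and 14.3%. Over the alternatives 4 to 9 members of the drug pathway and 5 to 10 of the retinol pathway were foregut-high. UGT2B31, of both pathways, stood at 2.46 and 2.82 CPM in AFE, 0 and 0 in DE and 0.0748 and 0 in LPO. CYP1A1, a detoxifying oxidase induced through the aryl hydrocarbon receptor, stood at 302 and 321 CPM in AFE, 6.87 and 8.29 in DE and 6.48 and 5.29 in LPO. In PSC it was higher still, at 693 and 634. CYP17A1 and RGN were named for their large smaller step and not as members of these pathways. CYP17A1, an enzyme of steroid hormone synthesis, stood at 13 and 10.9 CPM in AFE, 0.138 and 0 in DE and 0 and 0 in LPO. It too was present in PSC, at 7.69 and 9.45. RGN, a lactonase of liver and kidney, stood at 84.4 and 85.4 CPM in AFE, 0.951 and 0.946 in DE and 1.68 and 2.05 in LPO, 45.4-fold over LPO.

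Muscle, cartilage and epithelial genes were among the 20 foregut-high genes with the largest smaller step. MYH7, the slow and cardiac myosin heavy chain, stood at 193 and 200.3 CPM in AFE, 5.57 and 6.85 in DE and 2.37 and 3.25 in LPO. MYH6, its atrial relative, stood at 44.7 and 49.99 CPM in AFE, 21.2 and 19.1 in DE and 2.86 and 2.97 in LPO, and these similar genes may share reads. Of 16 tested genes of a heart and lateral mesoderm list, MYH7, MYH6 and GATA5 were foregut-high and 4 foregut-low. These shares were 18.75% and 25%, against 15.9% and 14.3% of all genes. GATA5, of heart and gut, stood at 47.1 and 41.3 CPM in AFE, 22.8 and 18.8 in DE and 7.63 and 7.99 in LPO. TBX20, a heart factor, stood at 0.18 and 0.20 CPM in AFE, 13.1 and 12.5 in DE and 0.224 and 0.302 in LPO. TBX20 was thus at the floor in AFE. The summed level of that list was 297 and 306 CPM in AFE, 292 and 216 in DE, 56.2 and 60.9 in LPO, and of the 26 mesenchyme and stroma genes 1301 and 1346 CPM in AFE, 2057 and 1690 in DE, 12914 and 13212 in LPO. The part of such cells in the result was not tested, and in bulk RNA fewer cells of a type and less RNA per cell cannot be told apart.

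AQP3, a water and glycerol channel of epithelia, stood at 239.9 and 243 CPM in AFE, 3.03 and 2.73 in DE and 12.3 and 13.6 in LPO. CRTAC1, a cartilage matrix protein, stood at 435 and 455 CPM in AFE, 14.9 and 14.5 in DE and 7.56 and 7.87 in LPO. COL2A1, the main collagen of cartilage and notochord, stood at 416 and 420.3 CPM in AFE, 4.76 and 4.56 in DE and 97.7 and 99.5 in LPO. The 2 AFE libraries were close to each other for these genes and above all DE and LPO libraries, by 18.6-fold over LPO for AQP3, 57.8-fold for CRTAC1 and 4.24-fold for COL2A1. CLDN3, a tight junction claudin, stood at 402 and 433 CPM in AFE, 63.9 and 79.6 in DE and 41.5 and 39.8 in LPO. LAMA5, a laminin chain of epithelial basement membranes, stood at 830.4 and 873 CPM in AFE, 296 and 281 in DE and 286 and 289.96 in LPO, although its reads may be shared with an overlapping gene. AFE was highest for both.

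Of the 7 signalling lists, 5 held more foregut-low than foregut-high members, and the retinoic acid and Hedgehog lists held fewer. Of 14 tested NODAL and TGF-beta genes 0 were foregut-high and 5 foregut-low, of 20 BMP genes 1 and 8, of 24 FGF and ERK genes 3 and 9, of 14 Notch genes 1 and 4, and of 25 WNT genes 5 and 6. The shares on the low side ranged from 24% to 40%, against 14.3% of all genes. The median contrasts of the 5 lists were -2.04, -1.0, -1.01, -0.97 and -0.36.

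In the TGF-beta and BMP group, SMAD7, the feedback inhibitor inside the cell, stood at 1.5 and 1.05 CPM in AFE, 9.56 and 10.004 in DE and 16.8 and 12.8 in LPO. SKIL, another inhibitor of SMAD signals, stood at 12.2 and 11.9 CPM in AFE, 37.7 and 40.8 in DE and 131 and 119 in LPO. All AFE values lay below all DE and LPO values for both, with SMAD7 7.67-fold below DE and 11.6-fold below LPO. The ligand BMP2 stood at 2.07 and 2.98 CPM in AFE, 59.5 and 52.4 in DE and 7.13 and 7.72 in LPO. The ligand BMP4 stood at 44.8 and 39.7 CPM in AFE, 247 and 165 in DE and 47.5 and 46.9 in LPO, a difference from LPO of 1.12-fold. DE was the highest stage for both ligands. ID2, a direct target of BMP signals, stood at 56.7 and 64.1 CPM in AFE, 279.6 and 298 in DE and 85.6 and 88.7 in LPO. BAMBI, a decoy receptor induced by BMP, stood at 27.5 and 23.5 CPM in AFE, 98.5 and 119 in DE and 55.9 and 55.8 in LPO. AFE was lowest for both, and DE highest. LEFTY2, a secreted antagonist of NODAL, stood at 0.0979 and 0.534 CPM in AFE, 1.66 and 1.87 in DE and 1.5 and 2.001 in LPO, after 2461 and 2694 in PSC, so that its low in AFE is one among values close to the floor.

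In the FGF group, the receptor gene FGFR4 stood at 3.67 and 3.87 CPM in AFE, 61.2 and 61.2 in DE and 10.7 and 11.6 in LPO. FGFR3 stood at 22.4 and 20.02 CPM in AFE, 194 and 171 in DE and 74.1 and 75.6 in LPO. AFE was lowest and DE highest for both receptors. Several genes known as readouts of ERK activity, though not all in the list, were foregut-low with them. ETV4, an ETS factor, stood at 15.5 and 14.7 CPM in AFE, 47.9 and 38 in DE and 51.6 and 53.5 in LPO. DUSP6, an ERK phosphatase, stood at 16.2 and 12.5 CPM in AFE, 36 and 28.1 in DE and 35.5 and 34 in LPO. SPRY2, a feedback inhibitor of receptor signals, stood at 10.2 and 13 CPM in AFE, 35 and 32.2 in DE and 19.7 and 22.1 in LPO. SPRED1, of a related family, was foregut-low too. AFE lay 3.47-fold below LPO for ETV4, 2.42-fold for DUSP6, 1.8-fold for SPRY2 and 2.28-fold for SPRED1. DUSP5, a nuclear ERK phosphatase, went against the list, at 149 and 151 CPM in AFE, 33 and 23.5 in DE and 47.8 and 46.1 in LPO. SPRY1 and SPRED2 were not called in the contrast. SPRY4 was called lower without meeting the overlap rule, at means of 6.63 CPM in AFE and 6.79 in DE. IL17RD and FGF18 were the other foregut-high members, FGF18 near the floor.

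WNT genes went both ways. DKK1, a secreted WNT antagonist, stood at 0.457 and 0.467 CPM in AFE, 30.2 and 16.3 in DE and 11.2 and 10.8 in LPO. AFE was 50.3-fold below DE and 23.8-fold below LPO. LGR5, an R-spondin receptor, stood at 0.229 and 0.183 CPM in AFE, 12.6 and 9.67 in DE and 1.8 and 2.33 in LPO, and its call was lost without either AFE library. SFRP5, an antagonist known from foregut, stood at 40.6 and 39.5 CPM in AFE, 4.89 and 3.43 in DE and 0.249 and 0.441 in LPO. The ligand WNT6 stood at 31.3 and 33.5 CPM in AFE, 3.82 and 5.4 in DE and 4.71 and 2.9 in LPO. These 2 were highest in AFE, with SFRP5 116-fold over LPO. The WNT target SP5 stood at 6.23 and 7.47 CPM in AFE, 1.85 and 1.56 in DE and 3.87 and 3.36 in LPO. NOTUM, which inactivates WNT ligands, stood at 19.3 and 15.4 CPM in AFE, 7.61 and 9.39 in DE and 10.1 and 10.6 in LPO, and its call was lost without AFE library 1, at an adjusted p of 0.0933. ZNRF3, which removes WNT receptors, stood at 33 and 33.1 CPM in AFE, 7.51 and 9.04 in DE and 23.5 and 28.5 in LPO. AFE was highest for these 3 genes by small margins over LPO. AXIN2, LEF1 and NKD1 of the same list were highest in LPO. Their means were 14.65, 10.2 and 7.56 CPM in AFE against 55.9, 70.2 and 19.6 in LPO. The contrasts of AXIN2, LEF1 and NKD1 were called lower without meeting the overlap rule.

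Of 14 tested Hedgehog genes 3 were foregut-high (21.4%, against 15.9% of all genes). Another 2 (HHIP and DHH) were foregut-low, a share of 14.3% that equals the 14.3% of all genes. IHH, the ligand of gut endoderm, stood at 55.2 and 58.6 CPM in AFE, 36.6 and 52.8 in DE and 2.05 and 2.37 in LPO. PTCH1, receptor and target of the pathway, stood at 88.1 and 86.9 CPM in AFE, 29.8 and 27.3 in DE and 41.4 and 42 in LPO, and the transducer SMO at 212 and 198 CPM in AFE, 126 and 137 in DE and 113 and 111 in LPO. All 3 were foregut-high, and 2 Hedgehog genes were called higher than DE and than LPO in separate tests. For IHH the AFE mean was close to DE, at 56.9 CPM against 44.7, and far from LPO, at 2.21. HHIP, the membrane antagonist of the same pathway, stood at 0.571 and 0.20 CPM in AFE, 87.6 and 65.6 in DE and 7.39 and 8.18 in LPO, 199-fold below DE. Of the Notch genes, the target HES1 stood at 138 and 141 CPM in AFE, 97.4 and 96.2 in DE and 55.8 and 57.5 in LPO and was foregut-high. HEY2, another target, stood at 0.963 and 0.867 CPM in AFE, 12.3 and 12.8 in DE and 6.52 and 6.89 in LPO, and HEY2, HES4, LFNG and NOTCH3 were foregut-low.

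Mesenchyme, matrix remodelling and vessel genes had more foregut-low than foregut-high members. Of 26 tested mesenchyme and stroma genes 7 were foregut-low and 3 foregut-high, of 18 matrix remodelling genes 5 and 0, and of 18 endothelium and blood genes 6 and 0. The low shares were 26.9%, 27.8% and 33.3%, against 14.3% of all genes. The mesenchyme high share was 11.5%, against 15.9%. The extracellular matrix list was nearly balanced, with 6 foregut-low (26.1%) and 5 foregut-high (21.7%) of 23. Its high members were HSPG2, COL4A2, LAMB1, NID1 and LAMA5. VIM, the filament protein vimentin, stood at 199 and 202 CPM in AFE, 1165 and 949 in DE and 2246 and 2312 in LPO. PDGFRA, a receptor of fibroblast precursors and primitive endoderm, stood at 8.5 and 7.12 CPM in AFE, 72.8 and 59.5 in DE and 73.9 and 81.9 in LPO. The 2 AFE libraries were close and far under the rest for both, with VIM 5.26-fold below DE and 11.3-fold below LPO. FN1, fibronectin, one of the 6 low matrix genes, stood at 1470 and 1458 CPM in AFE, 6061 and 5849 in DE and 2707 and 2683 in LPO. KDR, the main VEGF receptor of vessels, stood at 7.2 and 6.8 CPM in AFE, 79.9 and 43.3 in DE and 33.9 and 29.9 in LPO. ACTA2, TAGLN and OSR1 were the foregut-high mesenchyme members. Among transcription factors outside these lists ZIC2, of neural plate and pluripotent cells, stood at 3.35 and 2.43 CPM in AFE, 218 and 178 in DE and 25.9 and 24.4 in LPO. TBX3, a T-box factor, stood at 10.9 and 9.32 CPM in AFE, 73.3 and 83.9 in DE and 63.2 and 59 in LPO. AFE was the lowest stage for both.

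Cholesterol genes had the highest share of foregut-low members after hypoxia genes. Of 19 tested genes of synthesis and uptake 11 were foregut-low (57.9%, against 14.3% of all genes) and 0 foregut-high, with a median contrast of -1.34. In the KEGG pathway of steroid biosynthesis 6 of 19 were foregut-low (31.6%) and 3 foregut-high (15.8%, against 15.9% of all genes). HMGCS1, an enzyme of the mevalonate pathway, stood at 118 and 121 CPM in AFE, 305 and 277 in DE and 428 and 414 in LPO. SQLE, which oxidises squalene, stood at 29.1 and 30.8 CPM in AFE, 79.8 and 87.7 in DE and 124 and 118 in LPO. These 2 enzymes were lowest in AFE, 2.43-fold and 2.79-fold below DE. The count of foregut-low members was 11 in each alternative fit.

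Hypoxia genes were low in AFE between higher levels on both sides. Of 21 tested, 14 were foregut-low (66.7%, against 14.3% of all genes) and 2 (ANGPTL4 and CA9) foregut-high (9.52%, against 15.9%). The median contrast of the list was -0.97, and in 13 of the 14 foregut-low genes PSC lay below AFE. VEGFA, which draws in vessels, stood at 49.2 and 47.3 CPM in AFE, 81.8 and 73.8 in DE and 554 and 560.1 in LPO. ADM, adrenomedullin, stood at 13.5 and 12.3 CPM in AFE, 81.3 and 73.7 in DE and 127 and 127 in LPO. Most of the distance of both was to LPO, 11.5-fold for VEGFA and 9.84-fold for ADM. SLC2A1, the basal glucose transporter, stood at 429 and 416 CPM in AFE, 1774 and 1534 in DE and 857 and 873 in LPO. BNIP3, a mitophagy receptor, stood at 431 and 440.1 CPM in AFE, 1650 and 956 in DE and 1085 and 1123 in LPO. LDHA, which makes lactate, stood at 1128 and 1104 CPM in AFE, 2932 and 2052 in DE and 1648 and 1656 in LPO. No AFE value of these 3 reached a DE or LPO value, but the 2 DE libraries were apart. DE library 1 was above DE library 2 in 20 of the 21 genes, by a median of 0.51 on the log2 scale, and the part of that gap in the result was not tested. Outside the list ERO1A, an oxidase of the endoplasmic reticulum, showed a wide gap between the DE libraries, at 5.19 and 7.55 CPM in AFE, 203 and 17.7 in DE and 1228 and 1209 in LPO. Over the alternatives 11 to 15 members were foregut-low. In the KEGG glycolysis pathway 15 of 51 were foregut-low (29.4%) and 7 foregut-high (13.7%). Of 18 stress and unfolded protein genes 7 were foregut-low (38.9%) and 1 foregut-high (5.56%).

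Genes of the ribosome and of DNA replication were foregut-high in large part. In the KEGG ribosome pathway 86 of 103 tested genes were foregut-high (83.5%, against 15.9% of all genes) and 0 foregut-low. In DNA replication the counts were 25 of 34 (73.5%) and 0. The shares were smaller in the spliceosome, 37 of 113 (32.7%) and 12, and in oxidative phosphorylation, 27 of 97 (27.8%) and 5. Median log2 differences of these 2 pathways were -0.02 and -0.07 to DE, and 1.1 and 1.9 to LPO. The smaller step reached 2-fold in 0 and 2 of their foregut-high members. The ribosomal genes had a median log2 difference of 0.79 to DE and 2.03 to LPO, and the replication genes one of 0.34 to DE and 2.09 to LPO. The smaller step reached 2-fold in 21 of the 86 foregut-high ribosomal genes and in 2 of the 25 foregut-high replication genes. The summed level of the ribosomal genes was 186595 and 187516 CPM in AFE, 104980 and 101778 in DE, 52586 and 53051 in LPO. RPS28, of the small subunit, stood at 259 and 268 CPM in AFE, 101 and 107 in DE and 49.4 and 50.4 in LPO. MRPL12, of the mitochondrial ribosome, stood at 497 and 502 CPM in AFE, 281 and 314 in DE and 60.4 and 66.9 in LPO. EEF1A1, the elongation factor that brings transfer RNA to the ribosome, stood at 22327 and 22126 CPM in AFE, 13686 and 12796 in DE and 15737 and 15769 in LPO. The step over LPO was smaller for EEF1A1, 1.41-fold, than for RPS28, 5.28-fold. Of the replication genes, MCM3, of the helicase, stood at 163 and 171 CPM in AFE, 106 and 106 in DE and 30.4 and 26.7 in LPO. TYMS, which makes thymidylate and is not counted in the replication pathway, stood at 271 and 249 CPM in AFE, 126 and 123 in DE and 32.9 and 34.5 in LPO. PCNA, the polymerase clamp and a member of that pathway, stood at 96.3 and 95 CPM in AFE, 59.7 and 67.9 in DE and 15 and 16.3 in LPO. AFE was 1.57-fold, 2.09-fold and 1.5-fold above DE for MCM3, TYMS and PCNA, and 5.84-fold, 7.71-fold and 6.12-fold above LPO.

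In the KEGG cell cycle pathway 23 of 114 genes were foregut-high and 20 foregut-low, shares of 20.2% and 17.5% against 15.9% and 14.3% of all genes. In a shorter cell cycle list the counts were 10 and 3 of 26 (38.5% and 11.5%). In PSC both libraries lay above AFE for 13 of the 25 foregut-high replication genes and below for 9, and for 21 and 45 of the 86 ribosomal genes. CCND1, which drives entry into the cycle, was foregut-low, at 47.1 and 48.2 CPM in AFE, 93 and 104 in DE and 85.9 and 87 in LPO. CDKN1C, a cycle inhibitor, was foregut-high, at 89 and 77.9 CPM in AFE, 50.4 and 49.6 in DE and 26.3 and 24.6 in LPO. Over the alternatives 84 to 89 ribosomal and 24 to 26 replication genes were foregut-high.

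**Figure D3:**
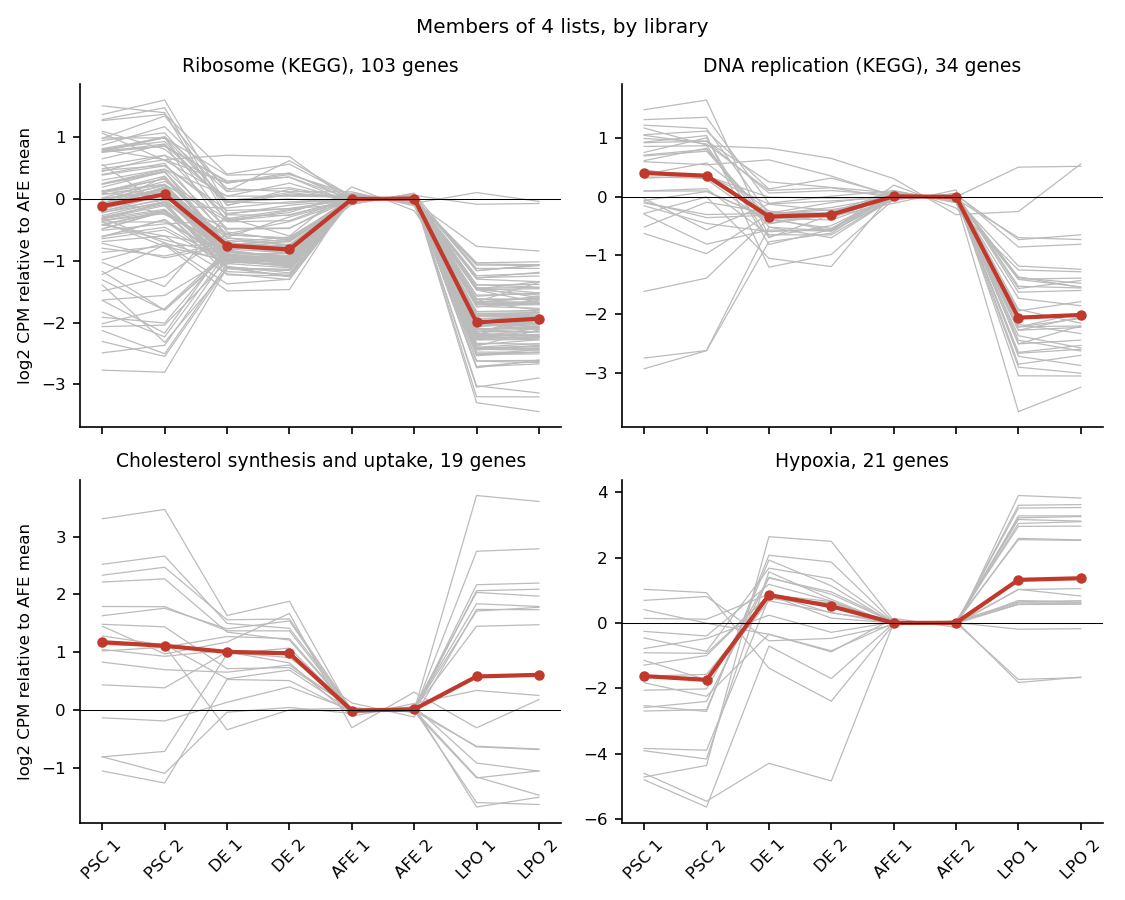
Grey lines are single genes and the red line their median, as log2 CPM in each of the 8 libraries relative to the gene's mean in AFE, for 103 ribosomal, 34 DNA replication, 19 cholesterol and 21 hypoxia genes. The ribosomal and replication medians were higher in AFE than in DE and LPO but close to or below those in PSC, and the cholesterol and hypoxia medians were lowest in AFE among DE, AFE and LPO.

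The difference between AFE and LPO varied with transcript length. Transcript length was taken from the ratio of deposited counts to FPKM. The shortest genes, under 0.75 kb, had a median log2 difference of 0.38 between AFE and LPO, and 18.5% of them were foregut-high and 5.50% foregut-low. Genes of 0.75 to 1.5 kb had a median log2 difference of 1.04 between AFE and LPO, and genes over 6 kb one of -0.67, while the medians against DE were 0.10 and -0.05. Foregut-high genes made up 29.9% of the genes of 0.75 to 1.5 kb and 11.2% of those over 6 kb, and foregut-low genes 6.40% and 26.4%. The median thus fell with length from 0.75 kb up, and the shortest class lay outside that order. Without the ribosomal genes the foregut-high shares were 28.8% and 11.2%. The ribosomal genes had a median length of 1.52 kb, oxidative phosphorylation genes 1.95 kb, hypoxia genes 3.20 kb, cholesterol genes 3.67 kb, axon guidance genes 5.30 kb and matrix-receptor genes 6.14 kb. FPKM sums were 345563 and 347824 in LPO against 439098 to 467008 in the other libraries. The part of transcript length in the steps to LPO was not tested.

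**Figure D4:**
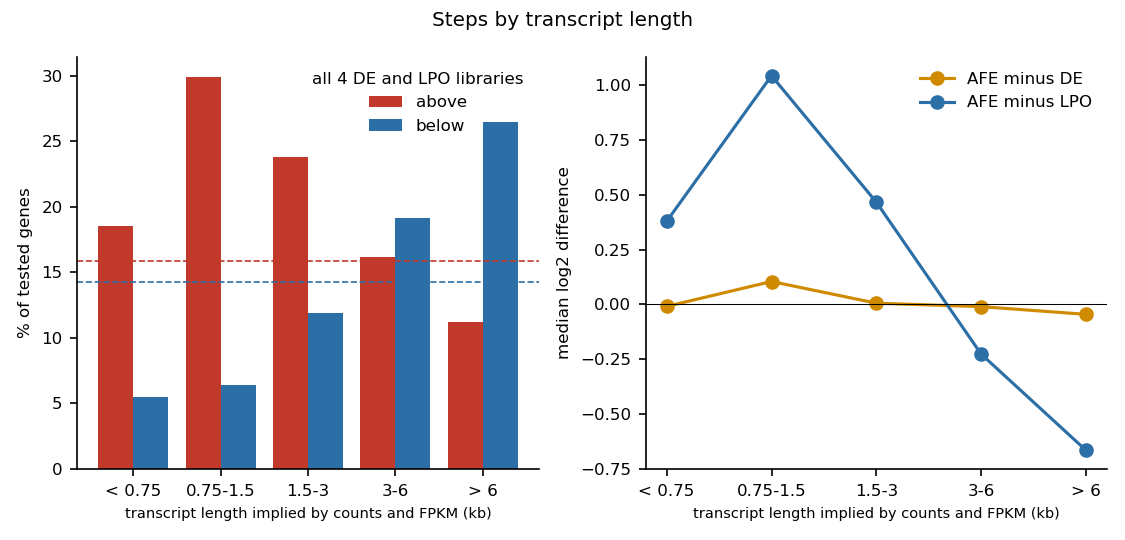
Left, bars give the percentage of tested genes that were foregut-high (red) or foregut-low (blue) by transcript length, with dashed lines at 15.9% and 14.3% over all genes. Right, points are the median log2 difference of AFE from DE, which stayed between -0.05 and 0.10, and from LPO, which was 0.38 in the shortest class and then ran from 1.04 at 0.75 to 1.5 kb to -0.67 over 6 kb.

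Membrane and guidance genes lay on the low side. In axon guidance 49 of 174 tested genes were foregut-low and 13 foregut-high, in cell adhesion molecules 22 and 8 of 96, and in matrix-receptor interaction 20 and 10 of 75. The low shares were 28.2%, 22.9% and 26.7%, against 14.3% of all genes. The high shares were 7.47%, 8.33% and 13.3%, against 15.9%. EPHA4, an ephrin receptor, stood at 4.13 and 2.57 CPM in AFE, 15.9 and 17.6 in DE and 72.4 and 69.6 in LPO, 21.2-fold below LPO. By the file's gene ontology column 28.8% of mitochondrial genes were foregut-high and 10.4% foregut-low, against 12.7% and 22.7% of plasma membrane genes. Of 936 transcription factors with a symbol 119 were foregut-high (12.7%) and 175 foregut-low (18.7%).

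**Figure D5:**
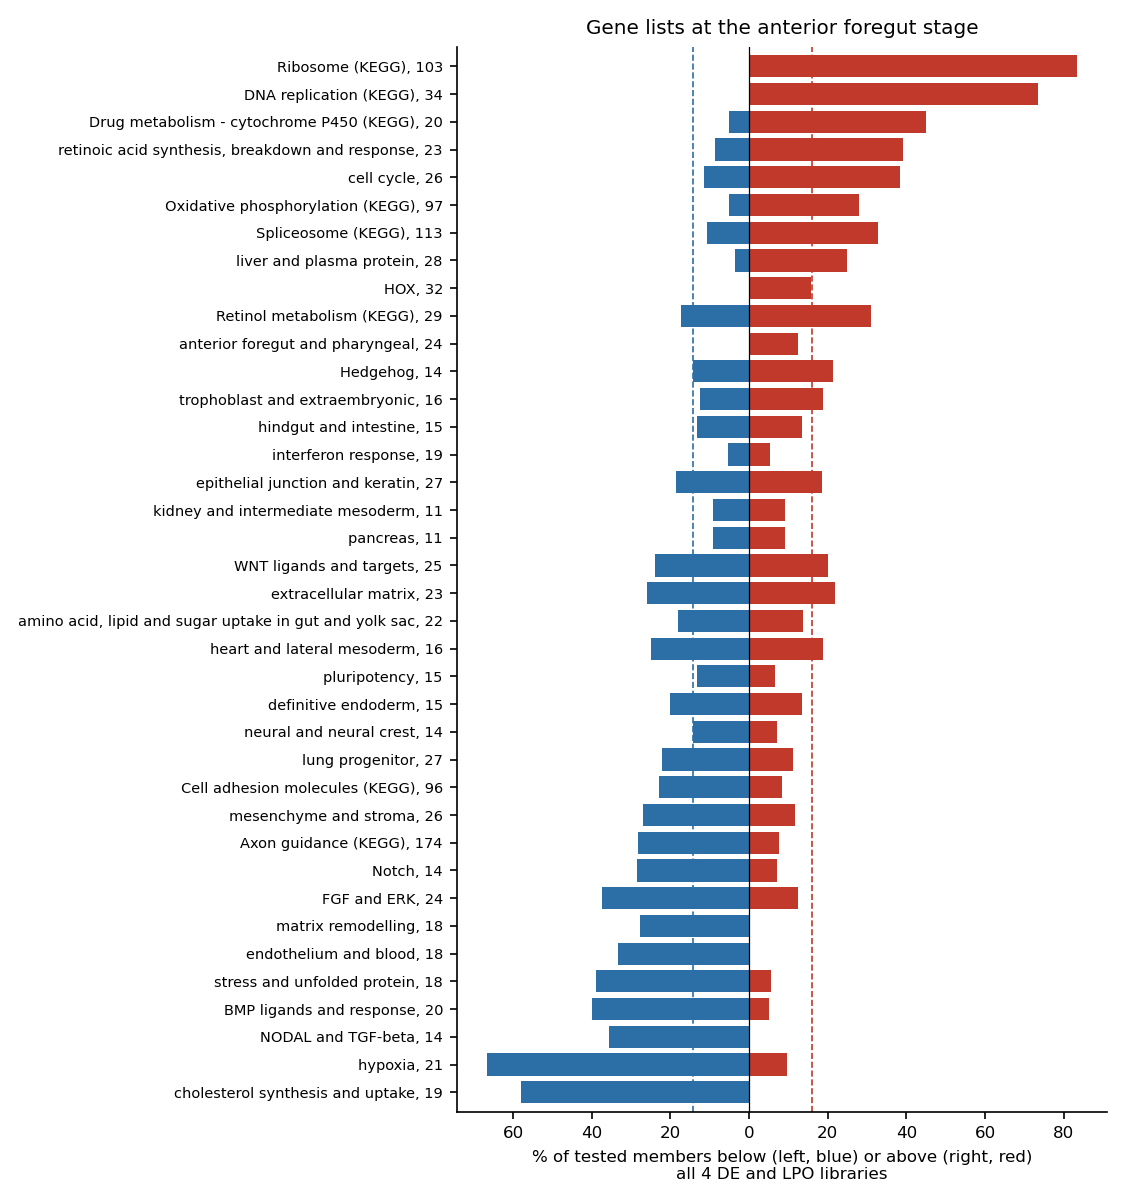
Bars give, for each list and selected KEGG pathways with the number of genes tested, the percentage of members foregut-high (right, red) and foregut-low (left, blue), with dashed lines at the 15.9% and 14.3% of all genes. Ribosome, DNA replication and cytochrome P450 genes reach furthest right and hypoxia and cholesterol genes furthest left.

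In the lists that follow, foregut-high shares ran from 5.26% (interferon response) to 18.75% (trophoblast and extraembryonic). Foregut-low shares ran from 5.26% (interferon response) to 18.5% (epithelial junction and keratin). Over all genes these shares were 15.9% and 14.3%. Of 15 tested hindgut and intestine genes 2 were foregut-high and 2 foregut-low, of 11 pancreas genes 1 and 1, of 11 kidney genes 1 and 1, of 14 neural and neural crest genes 1 and 2, of 15 pluripotency genes 1 and 2, of 16 trophoblast and extraembryonic genes 3 and 2, of 19 interferon response genes 1 and 1, and of 27 epithelial junction and keratin genes 5 and 5. KRT8, a keratin of simple epithelia, stood at 14132 and 14655 CPM in AFE, 27684 and 29354 in DE and 2059 and 2135 in LPO, between DE and LPO. POU5F1, the pluripotency factor, stood at 1.03 and 0.80 CPM in AFE, 390.5 and 383 in DE and 0 and 0.0504 in LPO, and at 4453 and 5156 in PSC. At the edges of the rule, H2BK1 passed with an adjusted p of 0.0499 and VPS11 missed at 0.0506 on the high side, and TRIP12 passed at 0.0499 and CCDC184 missed at 0.0504 on the low side.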

How the data were processed

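Messenger RNA of 8 pig libraries, 2 per stage, was sequenced as read pairs from oligo(dT)-captured, dUTP-marked libraries, per the labels' protocols. The deposited table of 25578 genes holds the authors' estimated counts (expected counts) and the authors' FPKM per library. Tools listed in the submitters' processing notes are HISAT2 2.2.1, StringTie 2.1.6, cutadapt 1.9, edgeR and DESeq2, with no roles stated. The build of the genome was not stated in the sources used here. The deposited expected counts are whole numbers that gather at multiples of 4, so about 4 counts stand for 1 read pair, 9001093 to 16891567 pairs per library, and precision is set by pairs.

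Counts were used as deposited in R 4.3.3 with edgeR 4.0.16: filterByExpr with a minimum count of 10 kept 19346 genes, TMM scaled the libraries, and 1 quasi-likelihood model with a mean per stage was fitted to all 8 libraries (4 residual degrees of freedom). The contrast AFE - (DE + LPO)/2 and the steps AFE - DE and AFE - LPO were tested, with Benjamini-Hochberg adjustment over all genes tested and a threshold of 0.05. The code was tested on simulated data. Lists were counted against the share of all genes called. A fold is a ratio of mean CPM; where a stage had no read, it is a bound against a floor of 3 read pairs per library. Intervals and floors cover counting error only. Alternatives used DESeq2 1.42.0 and limma 3.58.1, and figures Python 3.11.15 with matplotlib 3.10.9.

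The genes, lists and tests were chosen with earlier results of these data known. Named genes are the 20 with the largest smaller step in each direction at 5 FPKM or more, a panel of 16 stage factors, and up to 4 genes per list with the largest contrast; others were picked after their values were seen, and some are not reported here. Of 25578 genes, 10013 carry no symbol, and 130 symbols came from a reference table of gene names. No sequences are printed. Members of the lists that are absent from the table were not analysed here.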

Additional observations from a re-analysis of the deposited data

How the results depend on the processing

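Of the counts over all genes, most stayed within 1.5 times their reported value under every alternative. Fitted to log2 FPKM with limma, 7740 (pseudocount 1) and 7240 (pseudocount 0.1) genes were called lower, against 4219. With 1 library left out at a time, 1014 to 1928 genes were called higher in both steps, against 1655; 1041 and 1014 were called without AFE library 1 and 2. Foregut-high genes numbered 2210 to 3276 and foregut-low genes 2094 to 3865 over all alternatives, and with library totals as the scaling, a choice added after seeing the data, 2261 and 3597. On log2 FPKM the contrast changed sign for GATA6 (-0.011 and -0.0087 with pseudocounts 1 and 0.1), PAX9 (-0.41 and -0.57), OTX2 (-1.48 and -0.51), SOX2 (-0.047, pseudocount 1) and SOX17 (-0.62, pseudocount 1). The cause was not tested. For the named genes 4537 refitted contrasts kept their direction and call, 109 lost the call and 11 gained it. Of the list counts 1749 stayed within 1.5 times and 151 did not.

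The labels do not say whether same-numbered libraries of different stages belong together. Over all genes tested, deviations of same-numbered libraries correlated at -0.0136 to 0.00782. A pairing that touches few genes could also give such values, so they cannot exclude one. With the replicate number as a block 2923 genes were foregut-high and 2613 foregut-low, and 4908 and 3995 were called in the contrast. With 2 libraries per stage and 4 residual degrees of freedom, small steps and genes near 3 read pairs per library are the least certain.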
